A study of Homo sapiens with 15 samples.

Results

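Described here are 9 human genes of antioxidant defence in HepG2 cells: GCLC and GCLM for making glutathione, GPX2 and GSR for using and recycling it, TXNRD1 and SRXN1 of the thioredoxin system, NQO1 and ME1 for NADPH-linked redox reactions, and OSGIN1. They were taken by gene symbol from the 57773 genes listed for each library. The choice was made with earlier results of these data known. HepG2 is an established hepatocellular carcinoma line. Exposures lasted 72 h and used 25 or 250 µM of TCEP, which is tris(2-chloroethyl) phosphate, 2.5 or 25 µM of TCIPP, which is tris(2-chloroisopropyl) phosphate, or the 0.1% DMSO control alone. Each of these 5 groups had 3 libraries. The compounds belong to the chlorinated organophosphate flame retardants, and the chloroalkyl arms of TCIPP are branched by a methyl group where those of TCEP are not. Per the labels' protocols, every triplicate came from its own seeding, exposure and RNA extraction, all in this single line, kept below 25 passages.

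As background, NRF2, the protein of the gene NFE2L2, is a transcription factor that KEAP1 marks for degradation in unstressed cells. Oxidants and electrophiles that modify KEAP1 let NRF2 build up and bind, with a small MAF protein, to antioxidant response elements near its target genes. Hepatocytes use the resulting enzymes to keep glutathione and thioredoxin reduced, both at the expense of NADPH. The line is known for a KEAP1-NRF2 system that chemicals can induce, and the question the groups allow is whether either flame retardant shifted these transcripts, at which concentration, and whether the related compounds differed.

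The promoters of several of these genes are shown because they carry the letters of the element that NRF2 binds. The core TGACNNNGC was searched on both strands in the 1000 bases before the start of the annotated main transcript, in GRCh37. It occurred in 8 of the 9 genes and in 32.5% of 19864 genes scanned in the same way. In the nearest 250 bases it occurred in 5 of the 9 and in 11.4% of all. The fuller form TGACTCAGC was present in NQO1 and ME1, against 1.3% of all genes. In SRXN1 the letters TGACNNNGC were not in this window. Capitals mark the core in 29-base stretches, each written 5′ to 3′ on the strand that carries it. The stretches of GCLC, GSR and OSGIN1, which also had the core, are not printed.
NQO1, chr16:69760900-69760928, minus strand, 446 bases before the start: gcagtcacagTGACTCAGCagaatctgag
ME1, chr6:84140889-84140917, minus strand, 128 bases before the start: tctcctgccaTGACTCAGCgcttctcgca
GPX2, chr14:65409567-65409595, plus strand, 113 bases before the start: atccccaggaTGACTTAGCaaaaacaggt
GCLM, chr1:94375002-94375030, plus strand, 25 bases before the start: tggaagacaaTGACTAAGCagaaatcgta
TXNRD1, chr12:104609448-104609476, plus strand, 90 bases before the start: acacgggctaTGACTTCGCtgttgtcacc
A match is a description of the letters, and binding was not measured.

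Depth ran from 5.35 to 26.8 M (megareads) of exon reads per library, with a median of 8.89 M. Levels below are CPM, exon reads of the gene per megaread of exon reads in the library, and 3 reads correspond to 0.112 to 0.560 CPM. All 10 hepatocyte markers examined were above 1 CPM on average. Of 6 markers of fibroblasts and stellate cells, COL1A2, DCN and LUM had no exon read in any library, 2 were above 1 CPM on average, and the sum ran from 12.7 to 34.2 CPM. Of 6 immune markers 3 were above 1 CPM on average, and the sum, 4026 to 5399 CPM, was mostly LYZ (3975 to 5372 CPM). The 4 endothelial markers found among the genes summed to 0.998 to 2.65 CPM, and none was above 1 CPM on average. The 5 biliary markers, with CFTR at 0 and 3 above 1 CPM, summed to 1661 to 2030 CPM with DMSO. This sum was mostly SPP1, at 739 to 1638 CPM over the 15 libraries, against 128 to 221 CPM for KRT19 and 186 to 245 CPM for SOX9. In the exposed groups the biliary sum was lower without overlap, at 1316 to 1548 CPM with TCEP at 250 µM, 1232 to 1430.0 CPM with TCEP at 25 µM, 1183 to 1441 CPM with TCIPP at 25 µM and 1150 to 1397 CPM with TCIPP at 2.5 µM. Its part in the results against DMSO was not tested. Fewer cells of a kind and less RNA per cell cannot be told apart in such bulk libraries. Intron reads, as a share of gene reads, were 8.68% to 9.10% with DMSO, 8.05% to 8.59% with TCEP at 25 µM, 7.82% to 8.67% with TCIPP at 2.5 µM, 8.31% to 8.75% with TCEP at 250 µM and 8.60% to 9.56% with TCIPP at 25 µM. Both lower concentrations thus had lower intron shares than DMSO, with no overlap between those groups and DMSO. Mitochondrial reads were 6.27% to 7.68% of exon reads with DMSO. With TCEP they were 5.91% to 6.54% at 25 µM and 6.47% to 6.79% at 250 µM. With TCIPP they were 5.68% to 6.37% at 2.5 µM and 6.70% to 7.23% at 25 µM. For each compound the mean of both shares was higher at the higher concentration. The part of these shares in the results below, also between concentrations, was not tested.

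Of the 9 genes, 8 had enough reads to be tested. Per length, in the deposited RPKM, NQO1 was the most abundant with a median of 209 over the 15 libraries. GPX2 followed with a median of 186 and overlapped NQO1 in range, at 100 to 286 against 177 to 242. The medians of GSR (53.9), TXNRD1 (47.4), SRXN1 (36.0) and GCLC (27.6) came next, each overlapping its neighbour in range. OSGIN1 (14.7) and GCLM (8.04) followed, and neither overlapped any other member. ME1, the cytosolic malic enzyme that makes NADPH, had 0 exon reads among the 170.5 M of all libraries, which allows a level of up to 0.0176 CPM over the 15 libraries together. Its introns held 4 reads in 3 libraries, so ME1 gives no comparison between groups. Whether the 0 comes from the line or from the counting was not tested.

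Some of these counts share reads with neighbouring gene models. Only 11.7% of the exon reads of GPX2 and 4.85% of those of SRXN1 were unique to the gene, against 94.0% for NQO1, 98.7% for GCLC and nearly all for GCLM, GSR, TXNRD1 and OSGIN1. GPX2, on chromosome 14 from 65405870 to 65409531 in hg19, overlaps CHURC1, FNTB and CHURC1-FNTB, and SRXN1, on chromosome 20 from 627259 to 634014, overlaps a further, clone-named gene model. Values of both genes are therefore uncertain in level, and the unpaired tests were repeated on unique reads and on reads summed over the overlapping models. The fits with the replicate number as a block, given further below, used total exon reads only and were not repeated in this way.

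Against DMSO, no gene of the group passed edgeR's unpaired test in any exposure. With TCEP at 25 µM, GPX2, NQO1 and GSR were the members furthest below DMSO. TCIPP at 2.5 µM gave GPX2 and NQO1 as the lowest. At the higher concentrations GPX2 and NQO1 lay nearer to DMSO, and GCLM, SRXN1 and, with TCIPP, OSGIN1 lay slightly above it. The 4 comparisons share the same 3 DMSO libraries.

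**Figure D1:**
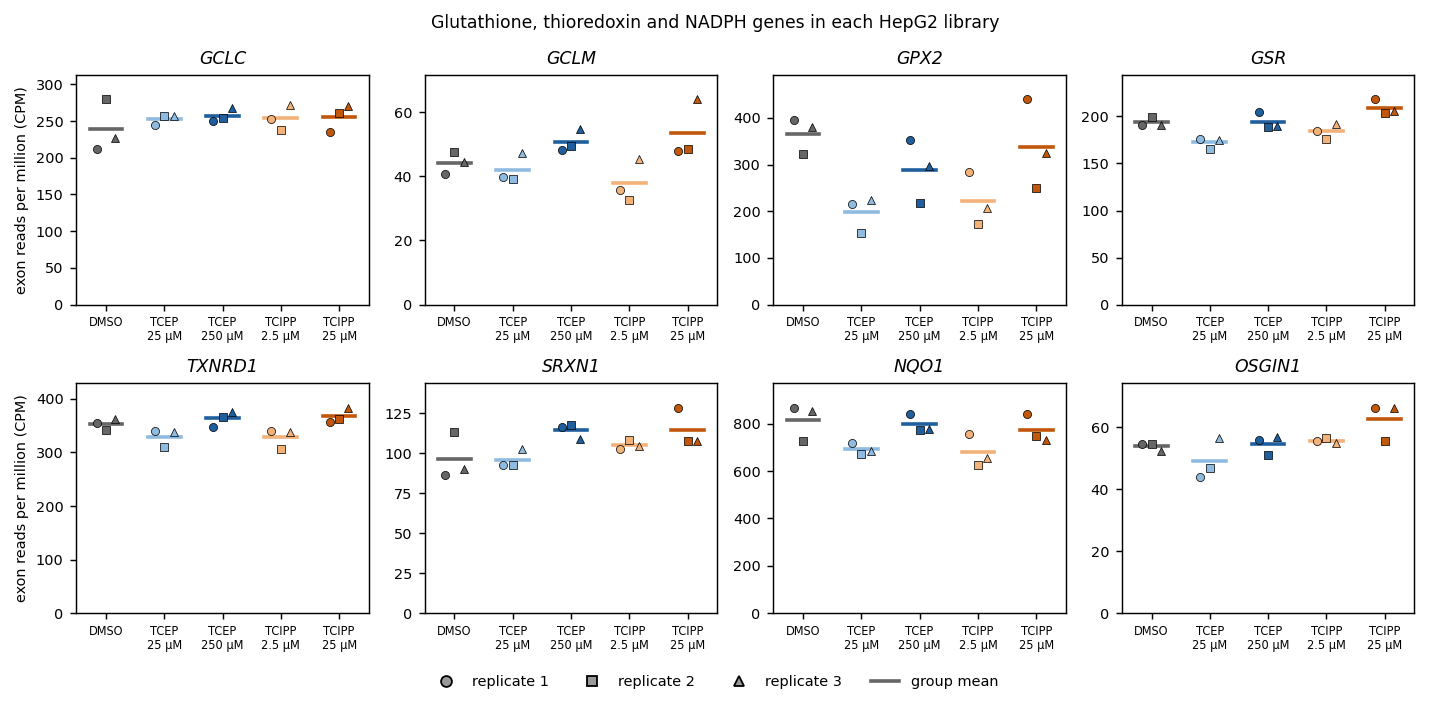
CPM (exon reads per megaread) in each library for the 8 genes with reads, by exposure group on the horizontal axis; points are single libraries with the replicate number as the marker shape and horizontal lines are group means. GPX2 shows the widest range, from 154 CPM in a library with TCEP at 25 µM to 439.8 CPM in a library with TCIPP at 25 µM, whereas GCLC is nearly level across groups.

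GPX2, a glutathione peroxidase that reduces hydroperoxides with glutathione, had the widest spread of levels among the members. Its level was 396, 321 and 381 CPM in DMSO replicates 1, 2 and 3. With TCEP it was 216, 154 and 223 CPM at 25 µM and 352, 219 and 297 CPM at 250 µM. With TCIPP it was 284, 172 and 208 CPM at 2.5 µM and 439.8, 249.5 and 325 CPM at 25 µM. All 6 libraries of the lower concentrations were below all 3 DMSO libraries, while both higher concentrations overlapped DMSO. The log2 fold change against DMSO was -0.88 ± 0.21 (SE, n = 3 in each group) with TCEP at 25 µM, with an adjusted p of 0.116 in edgeR's quasi-likelihood test, and -0.73 ± 0.21 with TCIPP at 2.5 µM, with an adjusted p of 0.124. On unique reads these values were -0.81 and -0.72. At the higher concentrations they were -0.36 with TCEP and -0.12 with TCIPP, and the latter became 0.05 without TCIPP 25 µM replicate 2.

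The replicate number moved with GPX2 as well. Replicate 2 was the lowest library in 5 of 5 groups, and replicate 1 the highest in 4 of 5. NQO1 was highest in replicate 1 in 5 of 5 groups. The labels do not say what a number stands for beyond a separate triplicate.

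GCLC and GCLM encode the catalytic and the modifier subunit of glutamate-cysteine ligase, the first and rate-limiting step of glutathione synthesis, and their patterns were unlike. GCLC lay between 211.9 and 279.7 CPM, both ends being DMSO libraries, and its group means ran only from 239.6 ± 35.6 CPM (SD, n = 3) in DMSO to 257 ± 9.73 CPM with TCEP at 250 µM. GCLM was 40.6, 47.4 and 44.5 CPM with DMSO. It was 39.6, 39.2 and 47.3 CPM with TCEP at 25 µM and 48.1, 49.5 and 54.8 CPM at 250 µM. With TCIPP it was 35.7, 32.5 and 45.3 CPM at 2.5 µM and 47.8, 48.6 and 64.0 CPM at 25 µM. Every library of both higher concentrations was above every DMSO library for GCLM, by a narrow margin, yet the log2 fold changes were 0.19 ± 0.12 for TCEP and 0.28 ± 0.12 for TCIPP (SE, n = 3 in each group) with edgeR adjusted p-values of 0.987 and 0.757.

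GSR, the NADPH-dependent glutathione reductase, was 191, 199.6 and 191 CPM with DMSO and 176, 166 and 175 CPM with TCEP at 25 µM, without overlap. With TCIPP at 2.5 µM it was 185, 176 and 192 CPM, which reached into the DMSO range. With TCEP at 250 µM it was 205, 189 and 190.4 CPM, and with TCIPP at 25 µM 218, 204 and 206 CPM, the latter above every DMSO library. The log2 fold change was -0.16 ± 0.06 with TCEP at 25 µM (SE, n = 3 in each group, edgeR adjusted p = 0.205) and 0.11 ± 0.06 with TCIPP at 25 µM (adjusted p = 0.847).

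TXNRD1, the cytosolic thioredoxin reductase and a selenoprotein, spanned 307 to 383 CPM over the 15 libraries. Its group means were 353 ± 10.7 CPM (SD, n = 3) with DMSO, 329 ± 17.1 and 363 ± 14.4 CPM with TCEP at 25 and 250 µM, and 328 ± 18.6 and 367 ± 13.5 CPM with TCIPP at 2.5 and 25 µM. Both lower concentrations lay just below the DMSO libraries without overlap, with log2 fold changes of -0.09 and -0.10. SRXN1, sulfiredoxin, restores overoxidised peroxiredoxins. It was 86.5, 113 and 90.2 CPM with DMSO, 116, 117 and 109 CPM with TCEP at 250 µM, and 128, 108 and 107 CPM with TCIPP at 25 µM, so DMSO replicate 2 stood within the exposed range. Its log2 fold changes were 0.23 ± 0.09 and 0.25 ± 0.09 (SE, n = 3 in each group, edgeR adjusted p = 0.946 and 0.661). For the lower concentrations SRXN1 changed sign with the counting of shared reads: 0.00 with TCEP and 0.13 with TCIPP became -0.10 and -0.02 on reads summed over the overlapping models.

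NQO1, a quinone reductase and a common readout of NRF2 activity, was 866, 727 and 853 CPM with DMSO. It was 718, 672 and 685 CPM with TCEP at 25 µM and 839, 773 and 777 CPM at 250 µM. With TCIPP it was 755, 627 and 656 CPM at 2.5 µM and 842, 746 and 731 CPM at 25 µM. The libraries of TCEP at 25 µM lay below DMSO, narrowly so for DMSO replicate 2, and TCIPP replicate 1 at 2.5 µM overlapped DMSO. The log2 fold change was -0.23 ± 0.09 with TCEP at 25 µM (SE, n = 3 in each group, edgeR adjusted p = 0.211) and -0.26 ± 0.09 with TCIPP at 2.5 µM (adjusted p = 0.170, and 0.0457 without DMSO replicate 2). At the higher concentrations it was -0.05 and -0.08.

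OSGIN1 encodes an oxidative stress induced growth inhibitor. It was 54.6, 54.6 and 52.2 CPM with DMSO, 43.8, 46.9 and 56.5 CPM with TCEP at 25 µM, and 66.0, 55.7 and 66.1 CPM with TCIPP at 25 µM. OSGIN1 was 55.8, 50.8 and 56.8 CPM with TCEP at 250 µM and 55.4, 56.4 and 54.8 CPM with TCIPP at 2.5 µM. Both TCIPP groups lay above every DMSO library, the lower concentration narrowly so. The log2 fold change with TCIPP at 25 µM was 0.22 ± 0.09 (SE, n = 3 in each group, edgeR adjusted p = 0.697).

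Counted over the group, 0 of 8 members passed at an adjusted p under 0.05 with TCEP at 25 µM, where 0% of 12567 genes did. At an unadjusted p under 0.05, 3 members were lower (NQO1, GSR and GPX2), against 7.81% of all genes, and 4 (these 3 and TXNRD1) were lower without overlap, against 11.7%. With TCEP at 250 µM 0 of 8 passed, again with 0% of all genes, and at the unadjusted threshold 1 (SRXN1) was higher, against 2.39%, and 1 (GCLM) was higher without overlap, against 6.77%. With TCIPP at 2.5 µM 0 of 8 passed, against 0.0955% of all genes, and 2 (NQO1 and GPX2) were lower at the unadjusted threshold, against 6.06%, and 2 (TXNRD1 and GPX2) were lower without overlap, against 8.22%, and 1 (OSGIN1) was higher without overlap, against 8.58%. With TCIPP at 25 µM 0 of 8 passed, against 0.00796%, and 3 (GCLM, SRXN1 and OSGIN1) were higher at the unadjusted threshold, against 3.41%, and 3 (GCLM, GSR and OSGIN1) were higher without overlap, against 4.97%. DESeq2 also called 0 of 8 in these 4 comparisons. The unadjusted counts at both higher concentrations fell to 0 without DMSO replicate 3. That of TCEP at 250 µM also fell to 0 without TCEP 250 µM replicate 2 or DMSO replicate 1, and was 2 without DMSO replicate 2. That of TCIPP at 25 µM fell to 1 when replicate 1 or replicate 3 of its own group, or replicate 1 of DMSO, was left out, and that of TCIPP at 2.5 µM was 4 without DMSO replicate 2. The median log2 fold change of the 8 members was -0.11 with TCEP at 25 µM, -0.08 with TCIPP at 2.5 µM, 0.02 with TCEP at 250 µM and 0.10 with TCIPP at 25 µM, and over all genes tested it was 0.00 in each.

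**Figure D2:**
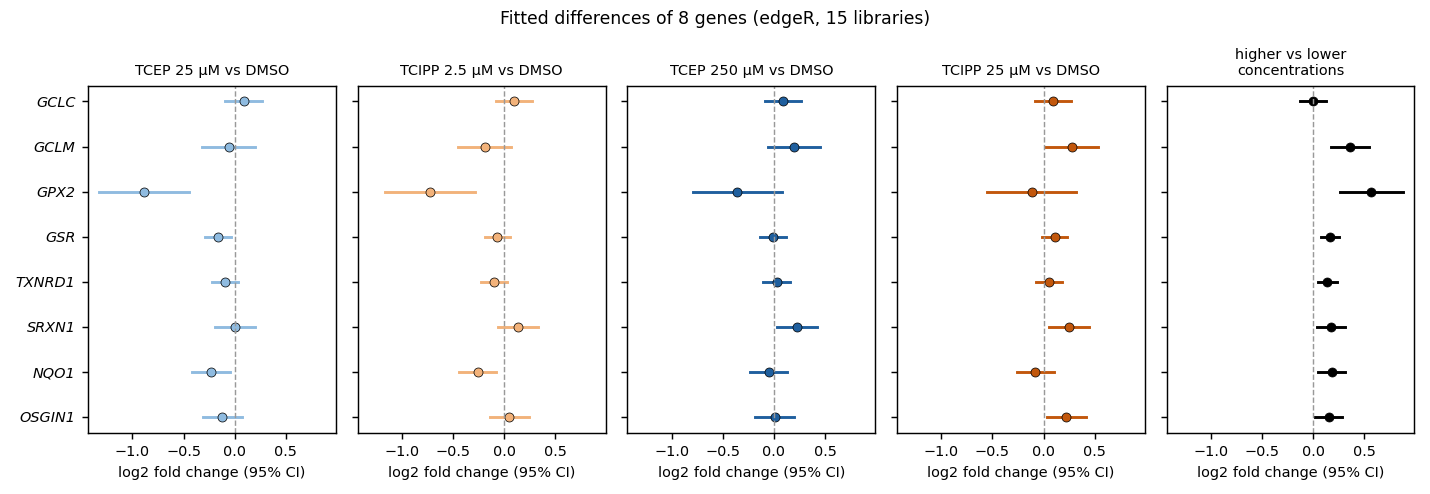
Log2 fold changes of the 8 genes on the horizontal axis with 95% confidence intervals from edgeR's fit to 15 libraries, in 5 comparisons. GPX2 lies furthest to the left at the lower concentrations, at -0.88 and -0.73, and 7 of 8 genes lie to the right of 0 when higher and lower concentrations are compared, with GCLC at 0.00.

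Comparing the concentrations directly leaves DMSO out. Both higher concentrations together, against both lower ones, gave a positive difference in 7 of 8 members, and GCLC was level. With all 15 libraries unpaired, 0 of 8 passed, against 1.09% of 12567 genes, and DESeq2 called 3, with 345 of all genes (2.75%). At an unadjusted p under 0.05, 7 were higher, against 7.72% of all genes. The differences were 0.57 ± 0.15 for GPX2, 0.36 ± 0.09 for GCLM and 0.16 ± 0.04 for GSR on the log2 scale (SE, 6 libraries against 6), with edgeR adjusted p-values of 0.0639, 0.0514 and 0.0598. NQO1 differed by 0.18 ± 0.06, SRXN1 by 0.17 ± 0.07, OSGIN1 by 0.15 ± 0.06 and TXNRD1 by 0.14 ± 0.04, and their adjusted p-values lay above 0.1. For GCLC the 95% interval of the difference ran from -0.13 to 0.13. GCLM and TXNRD1 showed no overlap between the 6 and 6 libraries, against 0.875% of all genes. The median over the 8 members was 0.17, and over all genes tested 0.00.

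Libraries with the same number deviated together among the exposed groups, so the same comparison was also read within numbers. GCLM, NQO1, TXNRD1, GSR and GPX2 were higher at the higher concentration in 6 of 6 same-numbered pairs, SRXN1 and OSGIN1 in 5 of 6, and GCLC in 3 of 6. The ratios ran from 0.41 to 0.70 on the log2 scale for GPX2, from 0.21 to 0.58 for GCLM and from 0.16 to 0.25 for NQO1. With the replicate number as a block, edgeR called 5 of 8 members higher, against 3.81% of all genes: GPX2 (adjusted p = 3.28e-05), GCLM (adjusted p = 0.000878), GSR (adjusted p = 0.00766), NQO1 (adjusted p = 0.0113) and TXNRD1 (adjusted p = 0.0233). Under the block these 5 genes were thus higher at the higher than at the lower concentrations. SRXN1 (adjusted p = 0.0942), OSGIN1 (adjusted p = 0.125) and GCLC (adjusted p = 0.997) did not pass. This contrast does not show a rise from DMSO. For GPX2 and NQO1 the DMSO means, 366 and 815 CPM, were above the mean of every exposed group. A block fitted on the 12 exposed libraries alone, chosen after seeing the data, called 6 of 8, against 6.65% of all genes, adding SRXN1. The members were chosen with earlier results of these data known. Their counts beside all genes, here and in the other comparisons, are a description and not independent evidence.

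**Figure D3:**
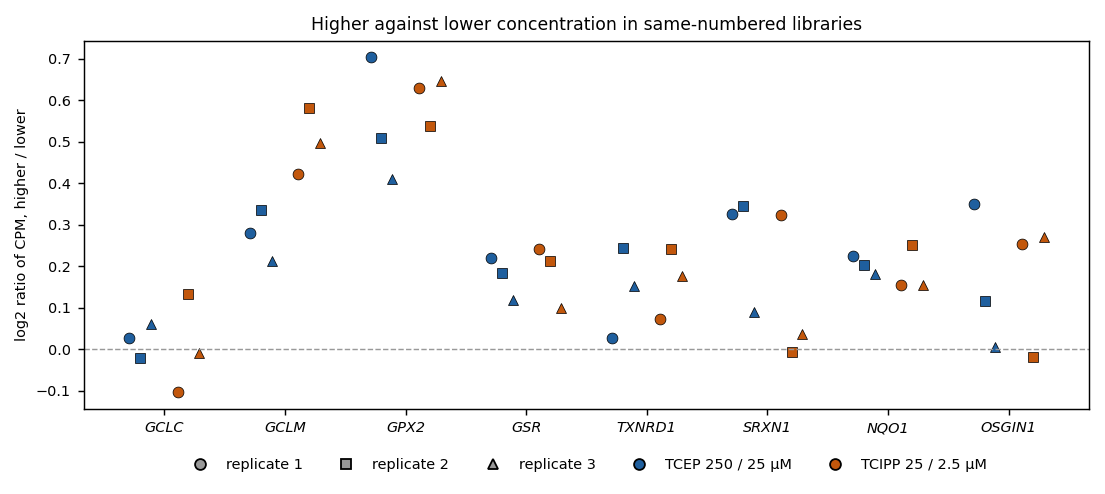
Log2 ratio of CPM between the higher and the lower concentration of each compound, on the vertical axis, within libraries of the same replicate number (marker shape), for TCEP in blue and TCIPP in orange. All 6 points lie above 0 for GCLM, GPX2, GSR, TXNRD1 and NQO1, and the points of GCLC scatter around 0.

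Compound by compound, no member passed at either concentration step without the block, in edgeR or DESeq2, except that without the filter on low counts edgeR called 1 for TCEP and 2 for TCIPP. For TCEP, 250 against 25 µM, 0 of 8 members passed, with 0% of all genes, and 3 were higher at an unadjusted p under 0.05 (SRXN1, GSR and GPX2), against 3.33%. That count was 0 without TCEP 25 µM replicate 2 and 5 without TCEP 25 µM replicate 3. For TCIPP, 25 against 2.5 µM, 0 of 8 passed, with 0% of all genes, and 4 were higher at the unadjusted threshold (GCLM, TXNRD1, GSR and GPX2), against 5.03%. That count was 2 without TCIPP 25 µM replicate 1 or TCIPP 2.5 µM replicate 2. With the replicate block, GPX2 was higher at 250 than at 25 µM of TCEP, by 0.52 on the log2 scale (edgeR adjusted p = 0.00794), 1 of 8 members against 0.533% of all genes. With TCIPP, GPX2 rose by 0.60 (adjusted p = 0.000933) and GCLM by 0.48 (adjusted p = 0.00403), 2 of 8 members against 1.54%. Both steps span the same 10-fold range from different starting concentrations. Their difference was tested and 0 genes passed: for GPX2 the TCEP step minus the TCIPP step was -0.08, with a 95% interval from -0.71 to 0.54, and for GCLM it was -0.21, from -0.58 to 0.15. These intervals leave room for steps of unequal size.

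The compounds share 1 concentration, 25 µM, so TCIPP and TCEP were compared there as the only matched pair. All 8 members had positive differences, higher with TCIPP, although GCLC was at 0.00 (95% interval from -0.17 to 0.18). The values of GPX2 were 439.8, 249.5 and 325 CPM with TCIPP and 216, 154 and 223 CPM with TCEP, without overlap. Its difference was 0.77 ± 0.21 on the log2 scale (SE, n = 3 in each group, edgeR adjusted p = 0.0988). OSGIN1 differed by 0.34 ± 0.09 (adjusted p = 0.0956) and GSR by 0.27 ± 0.06 (adjusted p = 0.0756). Unpaired, 0 of 8 passed, against 0.0398% of all genes, DESeq2 called 2, with 334 of all genes (2.66%), and 6 were higher at an unadjusted p under 0.05, against 9.19%. Without TCIPP 25 µM replicate 2, 3 passed, and so did 208 of 12728 genes (1.63%). With the replicate block, edgeR called 4 of 8 higher with TCIPP, against 4.29% of all genes: GPX2 (0.75, adjusted p = 0.000138), GSR (0.27, adjusted p = 0.00396), OSGIN1 (0.34, adjusted p = 0.0191) and GCLM (0.33, adjusted p = 0.0198). Of the same-numbered pairs, TCIPP was higher in 3 of 3 for each member but GCLC. The 25 µM groups are the lower concentration of TCEP and the higher one of TCIPP.

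Among the regulators of the pathway, NFE2L2 itself was at 255.5 ± 10.5 CPM (SD, n = 3) with DMSO and between 241 ± 9.63 and 259.9 ± 10.8 CPM in the exposed groups, and its difference between higher and lower concentrations was 0.03 ± 0.06 on the log2 scale (SE, edgeR adjusted p = 0.857). KEAP1, the adaptor that targets NRF2 for degradation, was at 72.7 ± 2.35 CPM with DMSO and differed by 0.15 ± 0.12 (adjusted p = 0.577). Of 18 regulators tested, 0 passed edgeR's test in this comparison, where 1.09% of all genes did. At an unadjusted p under 0.05, 2 were higher and 1 lower, against 7.72% and 8.61% of all genes. SQSTM1, an autophagy receptor that binds KEAP1, gave 0.19 ± 0.05 (adjusted p = 0.0982, and 0.0153 with the replicate block). With the block 1 regulator was called higher and 1 lower, against 3.81% and 4.97% of all genes. DESeq2 gave the same counts, with 2.75% of all genes called.

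Other genes of the glutathione and NADPH pathways did pass between the higher and the lower concentrations, where 1.09% of all genes did. Of 15 further genes of glutathione synthesis and transport, 2 rose and 0 fell. CTH, cystathionine gamma-lyase, which makes cysteine, was 23.7, 24.4 and 25.7 CPM with TCEP at 25 µM and 23.9, 24.2 and 21.6 CPM with TCIPP at 2.5 µM, against 31.4, 29.1 and 31.2 CPM and 31.9, 32.3 and 31.5 CPM at the higher concentrations. Its difference was 0.38 ± 0.06 on the log2 scale (SE, edgeR adjusted p = 0.0116), with no overlap. SLC7A11, the cystine carrier of system xc, differed by 0.54 ± 0.12 (adjusted p = 0.0403), and only 21.2% of its exon reads were unique. Its partner SLC3A2 gave 0.22 ± 0.05 (adjusted p = 0.0576, and 0.0125 with the replicate block). With the block 4 of the 15 were called higher, against 3.81% of all genes. CTH, SLC7A11 and SLC3A2 are also known targets of the amino acid stress factor ATF4.

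Of 16 genes of NADPH supply 1 rose, IDH1, the cytosolic NADP-linked isocitrate dehydrogenase, by 0.29 ± 0.06 on the log2 scale (SE, edgeR adjusted p = 0.0412). Of 21 genes of the thioredoxin and peroxiredoxin list 1 rose, SESN2, sestrin 2, by 0.41 ± 0.09 (adjusted p = 0.0451). PRDX1, a peroxiredoxin, gave 0.21 ± 0.09 (adjusted p = 0.233, and 0.00683 with the replicate block) and TXN, thioredoxin, 0.04 ± 0.06 (adjusted p = 0.838). Of 25 genes of glutathione use 1 fell, GPX3, the secreted glutathione peroxidase, by 0.39 ± 0.08 on the log2 scale (adjusted p = 0.0296), which is opposite in direction to GPX2. GPX3 is also the 1 gene of 19 further selenoproteins that fell. GSTZ1, a glutathione transferase, gave -0.32 ± 0.08 (adjusted p = 0.0514, and 0.0130 with the replicate block). With the block 2 genes of glutathione use were called higher and 5 lower, and 2 and 2 of the thioredoxin list. Of all genes, the block called 3.81% higher and 4.97% lower.

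Among 36 further NRF2 targets tested, 1 rose and 1 fell between the concentrations, where 1.09% of all genes passed. With the replicate block 15 were called higher and 1 lower, against 3.81% and 4.97% of all genes. The list had 29 of 36 positive differences with a median of 0.12, against 50.8% positive and a median of 0.00 over all genes. It was chosen with earlier results of these data known, so its counts are a description and not independent evidence. The gene that rose was SLC7A11 and the one that fell was HMOX1, heme oxygenase 1, whose induction is a classic sign of NRF2 activity. HMOX1 was 30.9, 34.8 and 29.9 CPM with DMSO. It was 42.4, 45.7 and 39.0 CPM with TCEP at 25 µM and 39.2, 53.9 and 44.9 CPM with TCIPP at 2.5 µM, all above every DMSO library. At the higher concentrations it was 29.5, 38.3 and 32.0 CPM with TCEP and 29.6, 30.4 and 32.3 CPM with TCIPP. HMOX1 fell by 0.48 ± 0.08 on the log2 scale (SE, edgeR adjusted p = 0.0156). Against DMSO its difference was 0.42 ± 0.12 with TCEP at 25 µM (adjusted p = 0.136) and 0.54 ± 0.12 with TCIPP at 2.5 µM (adjusted p = 0.0571), where GPX2 and NQO1 had negative ones. The latter passed in DESeq2 (adjusted p = 0.00517), on unique reads (0.0347), without the filter on low counts (0.000128), and without TCIPP 2.5 µM replicate 1 (0.0362) or DMSO replicate 2 (0.0297).

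**Figure D4:**
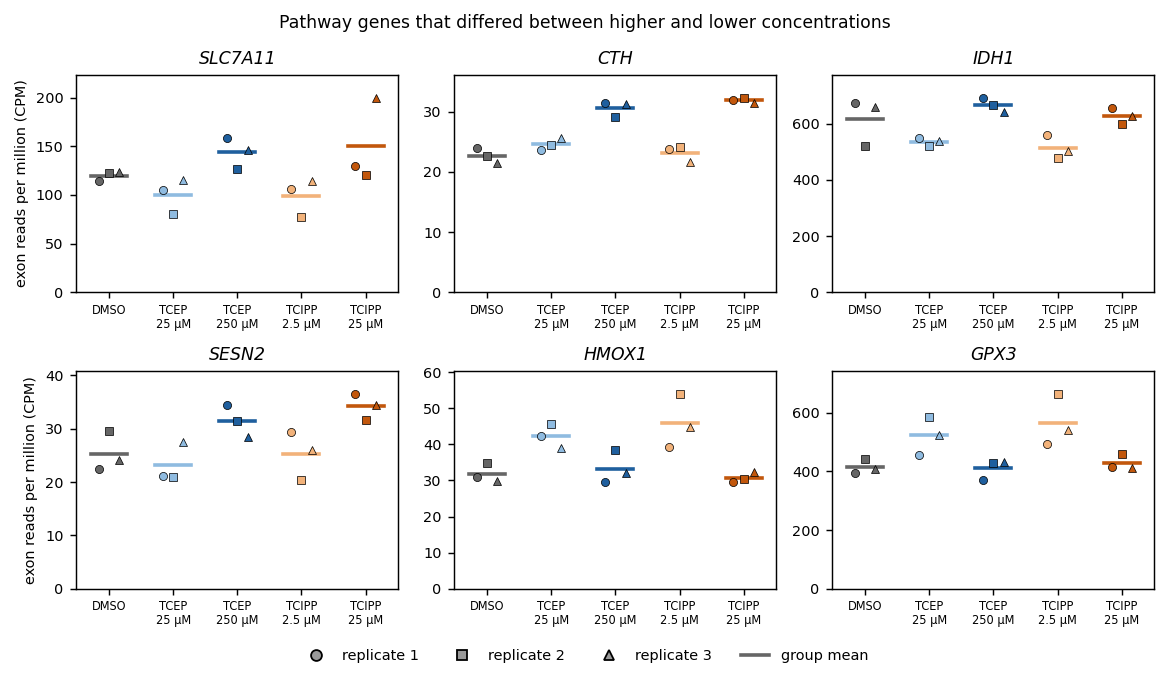
CPM (exon reads per megaread) in each library for 6 pathway genes that passed between higher and lower concentrations, by exposure group, with the replicate number as the marker shape and the group mean as a line. SLC7A11, CTH, IDH1 and SESN2 lie higher at 250 µM TCEP and 25 µM TCIPP, whereas HMOX1 and GPX3 lie higher at 25 µM TCEP and 2.5 µM TCIPP.

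At the lower concentrations most differences of the same further targets from DMSO were negative, again as a description of a list chosen with earlier results known. With TCEP at 25 µM, 29 of 36 had a negative difference from DMSO with a median of -0.13, against 49.9% of all genes, and 13 were lower at an unadjusted p under 0.05, against 7.81%, and 2 higher. In edgeR's test 0 passed, but DESeq2 called 4 of 33 lower, a fit of only the groups compared 5 of 36, and edgeR without the filter 8 lower and 1 higher of 37. Of all genes, these fits called 1.1%, 1.1% and 2.81% in either direction. The aldo-keto reductases AKR1B10 and AKR1B1, which reduce carbonyls with NADPH, were at -0.70 ± 0.18 and -0.62 ± 0.14 (SE, n = 3 in each group, edgeR adjusted p = 0.130 and 0.116, and 0.0399 and 0.0209 in the fit of only the groups compared). With TCIPP at 2.5 µM, 26 of 36 were negative with a median of -0.14, against 51.1% of all genes, and 9 were lower at the unadjusted threshold, against 6.06%, and 2 higher. In edgeR's test 0 passed, DESeq2 called 1 higher, and edgeR without the filter called 7 lower and 1 higher. Of all genes, DESeq2 called 1.89% and edgeR without the filter 2.51%. AKR1B10 was then at -0.64 ± 0.18 (adjusted p = 0.121). Between higher and lower concentrations AKR1B10 differed by 0.49 ± 0.13 (adjusted p = 0.0639, and 1.13e-05 with the replicate block). The remaining lists were divided more evenly: of 25 genes of glutathione use 17 were positive with TCEP at 25 µM, and of 21 of the thioredoxin list 9.

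Several of these calls were lost when single libraries were left out, and the share of all genes called varied with the library left out. Leaving out TCEP 250 µM replicate 1 ended the calls of CTH (adjusted p = 0.0539), HMOX1 (0.0609), GPX3 (0.108), SESN2 (0.138), IDH1 (0.118) and SLC7A11 (0.115), with differences in the same direction. CTH kept its call without any other of the 12 libraries, and HMOX1 lost it also without TCEP 250 µM replicate 3 (0.0567) and TCEP 25 µM replicate 2 (0.0614). GPX3 and SLC7A11 lost theirs in 7 and SESN2 and IDH1 in 9 of 12 such fits. Of all genes, the fit without TCEP 250 µM replicate 1 called only 2 of 12739 (0.0157%), against 1.09% with all libraries. Those without TCEP 250 µM replicate 3 and TCEP 25 µM replicate 2 called 0.166% and 0.0632%. The lost calls are therefore not particular to these genes. With the replicate block all 6 genes passed in edgeR's test, with adjusted p-values from 9.43e-05 for GPX3 to 0.00995 for SESN2.

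The members were only partly alike over the 15 libraries. Over 28 pairs of members the correlation of log2 CPM ran from -0.64 (GCLC with NQO1) to 0.85 (NQO1 with GPX2), with a median of 0.38, and 23 were positive. After group means were taken out the median was 0.03 and 16 were positive. The mean z score of the 8 members correlated with the intron share at 0.67, with the mitochondrial share of reads at 0.63 and with log10 depth at -0.05 over 15 libraries, which share their groups. By member, the correlation with the intron share ran from 0.02 (SRXN1) to 0.75 (GCLM). The genes most like that score, among 8806 others of at least 10 CPM, were PSME3 (0.918), a proteasome activator subunit, ULK1 (0.914), a kinase that starts autophagy, UHRF1BP1 (0.912), XBP1 (0.909), a transcription factor of the unfolded protein response, and ARHGEF1 (0.907).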

How the data were processed

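RNA of 15 HepG2 libraries was measured by poly-A selected, strand-marking paired-end sequencing, and the groups come from the labels. The authors mapped and counted reads with CLC Genomics Workbench on hg19 (GRCh37), per the series' design text and the submitters' processing notes, and no source here says if strand entered the counting. Per the file headers, the deposited tables hold whole-number read counts per gene (total and unique exon reads, intron reads). The deposited RPKM values are exon reads per kilobase and mapped megaread, per the file headers, and recomputing them gave 100% of values within a relative tolerance of 0.0001. The deposited quantile-normalized values were not used. Names turned into dates (27) were restored, and 96.1% of identifiers matched the name table. Models with an exon length of 0 (20986) stayed out of the tests.

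Total exon reads were tested with edgeR 4.0.16 (R 4.3.3): TMM scaling, edgeR's filter on low counts (12567 genes left), 15 libraries in 1 fit, quasi-likelihood test, Benjamini-Hochberg adjustment within each of 8 comparisons, called at an adjusted p under 0.05. SE is the absolute log2 fold change over the square root of F. In counts simulated for TCEP at 25 µM against DMSO over 12473 genes, 100% of 2-fold changes and 74% of changes of 0.5 on the log2 scale were called. The changed genes were drawn from genes with many reads, and no effect of the replicate number was simulated. These shares may therefore not hold for the libraries themselves. Without molecular identifiers, the floor of 3 reads covers counting error alone.

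Same-numbered libraries of exposed groups deviated together (correlations from 0.130 to 0.337, all above 0.1), but those of DMSO and exposed groups did not in every pair (0.0164 to 0.158). The pairing comes from this check, as the labels do not say what a number shares. Block values therefore stand beside comparisons among exposed groups, and those against DMSO are given only among the alternatives at the end. Unless said otherwise, the block was fitted to all 15 libraries, DMSO included, and it was fitted to total exon reads only. No 2 libraries held identical counts. Named were all members, the up to 3 genes per list with the smallest p against DMSO, a set of genes always looked up (among them NFE2L2, KEAP1, HMOX1, SLC7A11, TXN and PRDX1; 1 other is not reported here) and the 5 genes most like the members. The members and lists were chosen with earlier results of these data known. Promoters were read from the GRCh37 genome at the starts of Gencode transcripts.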

Additional observations from a re-analysis of the deposited data

How the results depend on the processing

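The number of members passing the test was 0 in each of the 8 comparisons and rose under some alternatives. With the replicate block on all libraries it was 2 for TCEP at 25 µM and 2 for TCIPP at 2.5 µM against DMSO (GPX2 and NQO1 in each, against 3.88% and 2.93% of all genes lower), where the libraries share only a number, 1 and 2 for the TCEP and TCIPP steps, 4 for TCIPP against TCEP at 25 µM and 5 for higher against lower concentrations. The pairing changed no other member call. A block on the 12 exposed libraries gave 3, 5, 7 and 6 for the last 4 comparisons, where it called 555, 948, 2096 and 1804 of 12510 genes. Without a filter on low counts, 1, 1, 1, 2, 3 and 2 members passed in those 6 comparisons, in the same order, with 618, 553, 161, 345, 756 and 728 of 22008 genes called. DESeq2 called 2 at 25 µM and 3 between concentrations, with 2.66% and 2.75% of all genes called. Unique reads gave 2 between concentrations (1.79% of all genes) and reads summed over overlapping models 1 (1.1%). A fit of only the groups compared gave 1 for TCEP at 25 µM (1.1%). Leaving out single libraries gave 0 to 1 for TCIPP at 2.5 µM, 0 to 3 at 25 µM and 0 to 2 between concentrations. The fits with the highest of these counts called 2.41%, 1.63% and 2.63% of all genes. The blocks on exposed libraries and the summed reads were chosen after seeing the data.

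Differences near 0 changed sign. SRXN1 with TCEP at 25 µM became -0.0051 with library totals, -0.092 on unique reads and -0.098 on summed reads, and -0.017 on summed reads with TCIPP at 2.5 µM. GSR with TCEP at 250 µM became 0.0056 with library totals. GCLC became -0.0025 and -0.0017 without the filter (TCEP step and 25 µM), 0.0055 and 0.0010 with library totals and with only the groups compared (TCIPP step), and 0.014 and 0.00017 with library totals and unique reads (between concentrations). With single libraries left out, ranges spanned 0 for GCLC (-0.031 to 0.026 in the TCEP step, -0.039 to 0.045 in the TCIPP step, -0.028 to 0.057 at 25 µM, -0.017 to 0.024 between concentrations), for SRXN1 with TCEP at 25 µM (-0.061 to 0.12), for NQO1 (-0.13 to 0.0013), TXNRD1 (-0.0030 to 0.060), GSR (-0.044 to 0.0096) and OSGIN1 (-0.027 to 0.051) with TCEP at 250 µM, for GPX2 with TCIPP at 25 µM (-0.36 to 0.054), and between concentrations for NFE2L2 (-0.029 to 0.060) and TXN (-0.0042 to 0.068). The causes were not tested. The median of the members stayed within 0.0677 of its main value on the log2 scale in all 68 alternative values that left no library out. That margin is the pooled SD within groups of the members' mean log2 CPM. With single libraries left out, the median kept its sign. The median 95% interval, not adjusted for the number of genes, reached 0.25 to 0.26 to either side against DMSO on the log2 scale. Widths differed by gene: with TCEP at 25 µM the interval ran from -0.29 to -0.04 for GSR and from -1.32 to -0.44 for GPX2. At the median width, smaller estimates have an interval that includes 0. Larger ones could also miss a call at an adjusted p, as GPX2 did at -0.88 with TCEP at 25 µM. A missing call therefore does not exclude a difference.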
